A study of Mus musculus with 9 samples.

Results

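The genes described here are 46 mitosis and spindle genes, taken as a fixed list of kinases, cyclins, checkpoint, kinetochore, spindle, cytokinesis and chromosome condensation genes from the 54232 Ensembl genes of the count tables. All 46 were matched by Ensembl identifier to their mouse symbol, and all 46 passed the filter on low counts in each of the 3 comparisons of genotypes. Bulk RNA sequencing was performed on the cochlear duct of 9 mouse embryos at E14.5. The libraries came from 3 WT (Prdm16 +/+), 3 Prdm16 cGT heterozygote (Prdm16 cGT/+) and 3 Prdm16 cGT null (Prdm16 cGT/cGT) littermates on an FVB/NJ background, each library holding the ducts of both inner ears of a single embryo. The cGT allele is a gene trap that all tissues of the embryo carry, so that loss of Prdm16 is not limited to the cochlea. Prdm16 is a transcriptional regulator expressed in Kölliker's organ (KO), the medial epithelium of the duct beside the prosensory domain.

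Mitosis is driven by Cdk1 bound to its cyclins. Kinetochores couple chromosomes to spindle microtubules, the spindle assembly checkpoint delays the anaphase-promoting complex (APC/C) until every chromosome is attached, and the central spindle then directs cytokinesis. Most of these genes are transcribed in a late wave of the cell cycle, in G2 and mitosis, so that their RNA in a tissue follows how many of its cells are in those phases. In the cochlear duct the prosensory domain leaves the cell cycle from apex to base around this stage, while KO cells go on dividing. RNA from whole ducts cannot tell apart fewer dividing cells from less RNA per dividing cell.

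Genes of the late wave commonly carry a cell cycle homology region (CHR) near the transcription start, the element bound by the MuvB complex, together with CCAAT boxes, which NF-Y binds. RefSeq promoter windows of GRCm38.p6 (the assembly also called mm10) covered 38 of the 46 genes, each from 250 bases before to 50 bases after the start. The letters TTTGAA were found on either strand in 28 of the 38 windows (73.7%), against 20.2% of the 27025 genes with a window. TTCGAA was found in 5 (13.2%, against 1.8%) and TTTAAA, which reads the same on both strands as TTCGAA does, in 9 (23.7%, against 14.9%). At least 1 of these CHR forms was present in 34 windows (89.5%, against 31.9%), and CCAAT in 30 (78.9%, against 41.1%). Both kinds were present in 29 of the 38 (76.3%, against 12.8%), and 2 or more CCAAT boxes in 19 (50%, against 13.3%). The 4 genes without any CHR form in the window were Mad2l1, Nek2, Nuf2 and Nusap1. These are matches of letters and not tested sites, and no match says only that the letters are not in this window. For 35 genes the RefSeq start lay within 250 bases of the gene start in the GENCODE annotation, and 31 of those 35 held a CHR form.

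**Figure D1:**
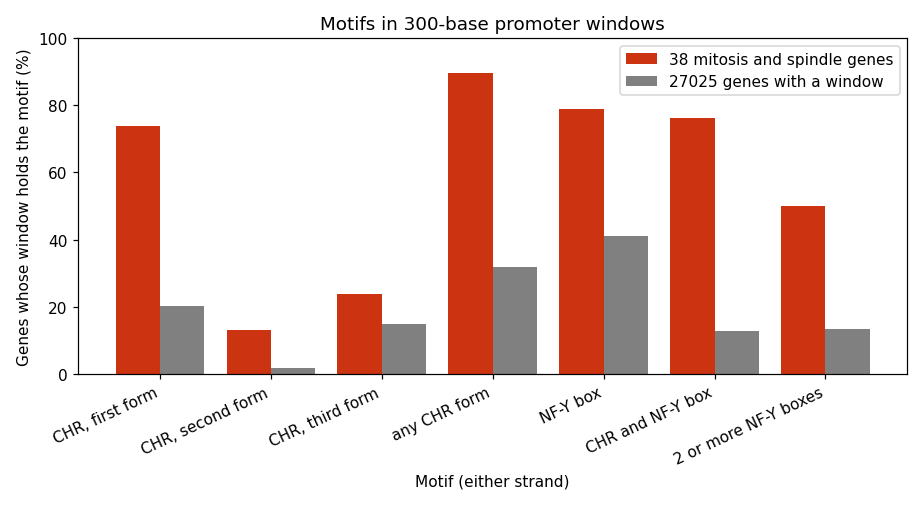
Share of promoter windows (%, vertical axis) that hold each motif on either strand (horizontal axis), for the 38 mitosis and spindle genes with a window (red bars) and for all 27025 genes with one (grey bars). The CHR forms stand in the order in which the text spells them out, and the shares of the mitosis genes are above those of all genes for each motif, with 89.5% against 31.9% for any CHR form.

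The stretches from 150 bases before to 30 bases after the start are shown, in the gene's own direction, for genes at both ends of the comparison of null and WT embryos. Nek2, Smc2, Cenpa, Prc1 and Racgap1 had the smallest p-values among genes whose RefSeq start lies within 250 bases of the GENCODE gene start, and Mad2l1 and Kif23 the smallest differences. Capitals mark CHR forms and CCAAT, or their reverse complements. The stretches are Nek2 at chr1:191821323-191821502 (plus strand), Smc2 at chr4:52439071-52439250 (plus strand), Cenpa at chr5:30666736-30666915 (plus strand), Prc1 at chr7:80294301-80294480 (plus strand), Racgap1 at chr15:99651627-99651806 (minus strand), Mad2l1 at chr6:66535071-66535250 (plus strand) and Kif23 at chr9:61946770-61946949 (minus strand).
Nek2: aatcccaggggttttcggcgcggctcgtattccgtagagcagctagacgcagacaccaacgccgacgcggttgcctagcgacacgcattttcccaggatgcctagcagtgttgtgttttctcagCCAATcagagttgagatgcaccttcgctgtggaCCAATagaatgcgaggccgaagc
Smc2: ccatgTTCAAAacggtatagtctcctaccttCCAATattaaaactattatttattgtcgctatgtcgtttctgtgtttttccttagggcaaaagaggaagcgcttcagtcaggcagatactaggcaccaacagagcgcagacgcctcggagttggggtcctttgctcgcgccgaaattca
Cenpa: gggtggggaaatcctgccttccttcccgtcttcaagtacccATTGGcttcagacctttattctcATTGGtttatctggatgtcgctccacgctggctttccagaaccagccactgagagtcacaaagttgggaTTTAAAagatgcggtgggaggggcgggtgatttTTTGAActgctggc
Prc1: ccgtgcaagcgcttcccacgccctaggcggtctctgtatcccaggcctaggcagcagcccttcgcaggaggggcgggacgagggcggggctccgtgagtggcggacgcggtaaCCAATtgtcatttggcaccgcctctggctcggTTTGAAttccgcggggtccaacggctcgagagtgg
Racgap1: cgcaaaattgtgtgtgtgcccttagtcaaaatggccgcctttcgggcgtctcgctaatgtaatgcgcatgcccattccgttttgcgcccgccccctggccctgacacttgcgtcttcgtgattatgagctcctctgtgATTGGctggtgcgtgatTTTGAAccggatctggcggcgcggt
Mad2l1: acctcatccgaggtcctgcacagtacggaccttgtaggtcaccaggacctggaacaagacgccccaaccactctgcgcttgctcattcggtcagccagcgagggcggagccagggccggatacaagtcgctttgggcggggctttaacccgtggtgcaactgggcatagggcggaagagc
Kif23: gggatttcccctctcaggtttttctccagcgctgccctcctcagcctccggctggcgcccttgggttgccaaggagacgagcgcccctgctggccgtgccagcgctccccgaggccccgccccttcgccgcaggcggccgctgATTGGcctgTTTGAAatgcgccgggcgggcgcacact
Within these 180 bases Nek2 held 2 CCAAT boxes and no CHR form, Cenpa held 2 of each, and Smc2, Prc1, Racgap1 and Kif23 held 1 of each. Mad2l1 held neither. Prc1 has a second RefSeq start nearby, and the first window listed is shown.

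Total counts were between 24095322 and 30819118 per library, and the 46 genes together took 0.190 to 0.353% of them. Prdm16 was at 184 to 225 CPM (read counts scaled to library size, with TMM factors) in WT, 123 to 151 in heterozygote and 19.1 to 27.4 in null embryos, so that the libraries were ordered as their labels say. The summed level of 3 markers of duct epithelium (Epcam, Cdh1 and Cldn6) was 1494 to 2011 CPM in all 9 libraries. The libraries differed in 8 mesenchyme markers (Pou3f4, Tbx18, Prrx1, Col3a1, Col1a2, Pdgfra, Twist1 and Foxc1). Their sum was 448, 881 and 105 CPM across WT embryos 1 to 3, 48.3, 90.8 and 68.4 across heterozygotes 1 to 3 and 58.2, 33.6 and 1329 across null embryos 1 to 3. WT embryos 1 and 2 and null embryo 3 therefore stood apart from the other 6 libraries, and results below are also given without these 3. None of the 8 was at 0 in any library. Endothelial markers (Pecam1, Cdh5, Kdr, Tie1 and Tek) summed to 78.8 and 64.7 CPM for WT embryos 1 and 2, to 45.96 CPM for null embryo 3 and to 2.42 to 5.96 CPM in the other 6. Over all genes tested, null embryo 2 stood apart in another way. It was the highest of the 9 libraries for 25.5% of genes and the lowest for 23.9%, the largest shares of any library.

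Mitosis and spindle genes were lower in Prdm16 cGT null than in WT cochlear ducts for all 46 genes, and 0 of them passed the correction for all genes in edgeR's test. The summed level of the 46 genes was 2913, 3533 and 2748 CPM across WT embryos 1 to 3, 2673, 3375 and 2984 across heterozygotes 1 to 3 and 2166, 1891 and 2643 across null embryos 1 to 3. All 3 null embryos lay below all 6 others, null embryo 3 by a small margin under heterozygote 1. All 46 genes had a log2 fold change below 0 (background over the 17168 genes tested, 48.1%), with a median of -0.45 and a range of -0.69 to -0.12, against a median of 0.01 over all genes tested. The null mean of single genes was 62.0% (Kif2c) to 92.3% (Mad2l1) of the WT mean.

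**Figure D2:**
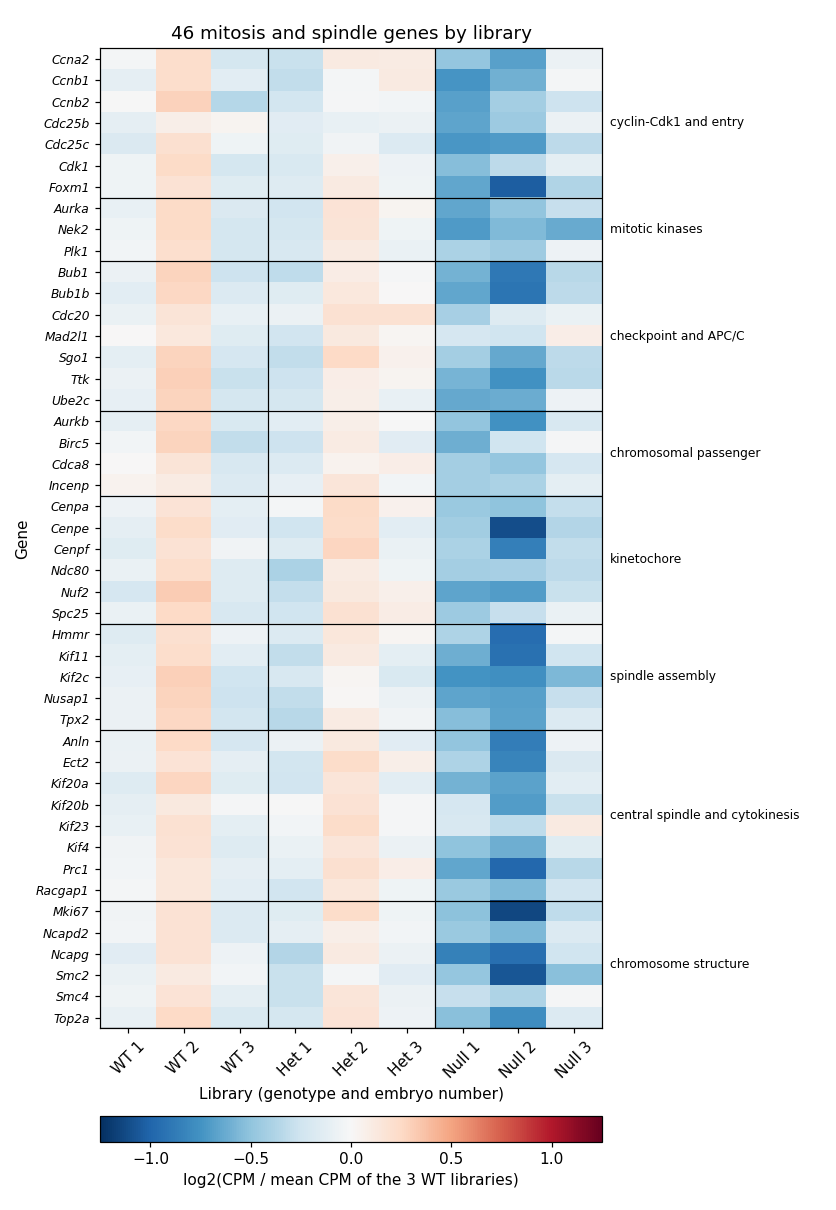
Level of each of the 46 genes (rows, grouped by role) in each library (columns), as log2 of its CPM over the mean CPM of the 3 WT libraries (color scale). Null embryos 1 and 2 are the lowest columns, WT embryo 2 and heterozygote 2 are the highest of their genotypes, and null embryo 3 lies between, with a median over the genes of -0.23 against -0.51 and -0.67 in null embryos 1 and 2.

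By edgeR's quasi-likelihood test on the 3 null and 3 WT libraries, 0 of the 46 genes passed a Benjamini-Hochberg adjusted p of 0.05 with an absolute log2 fold change over 0.5 (background 1.71% of genes in either direction, 0.786% lower). The smallest adjusted p was 0.0818, for Nek2. At an unadjusted p under 0.05, 33 of the 46 were lower and 0 higher, against 5.76% and 6.48% of all genes tested. In 26 genes all 3 null embryos were below all 3 WT embryos, against 8.95% of all genes tested. The genes share cells and libraries, so that these 46 values are not independent of each other. DESeq2 on the same libraries called 14 lower (background 1.51%), namely Bub1, Bub1b, Cdc25c, Cenpe, Cenpf, Foxm1, Kif11, Kif2c, Mki67, Ncapg, Nek2, Nusap1, Prc1 and Smc2, and limma-voom called 0 (background 0.81%). Single libraries moved these counts. Without null embryo 3, edgeR called 5 genes (Bub1b, Foxm1, Kif11, Ncapg and Prc1; background 1.31%), without null embryo 2 it called Smc2 alone (background 0.485%), and without any other single embryo it called 0. The number with an unadjusted p under 0.05 was 13 without WT embryo 2 (background 3.48%), 20 without null embryo 1 (7.32%) and 20 without null embryo 2 (5.26%).

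**Figure D3:**
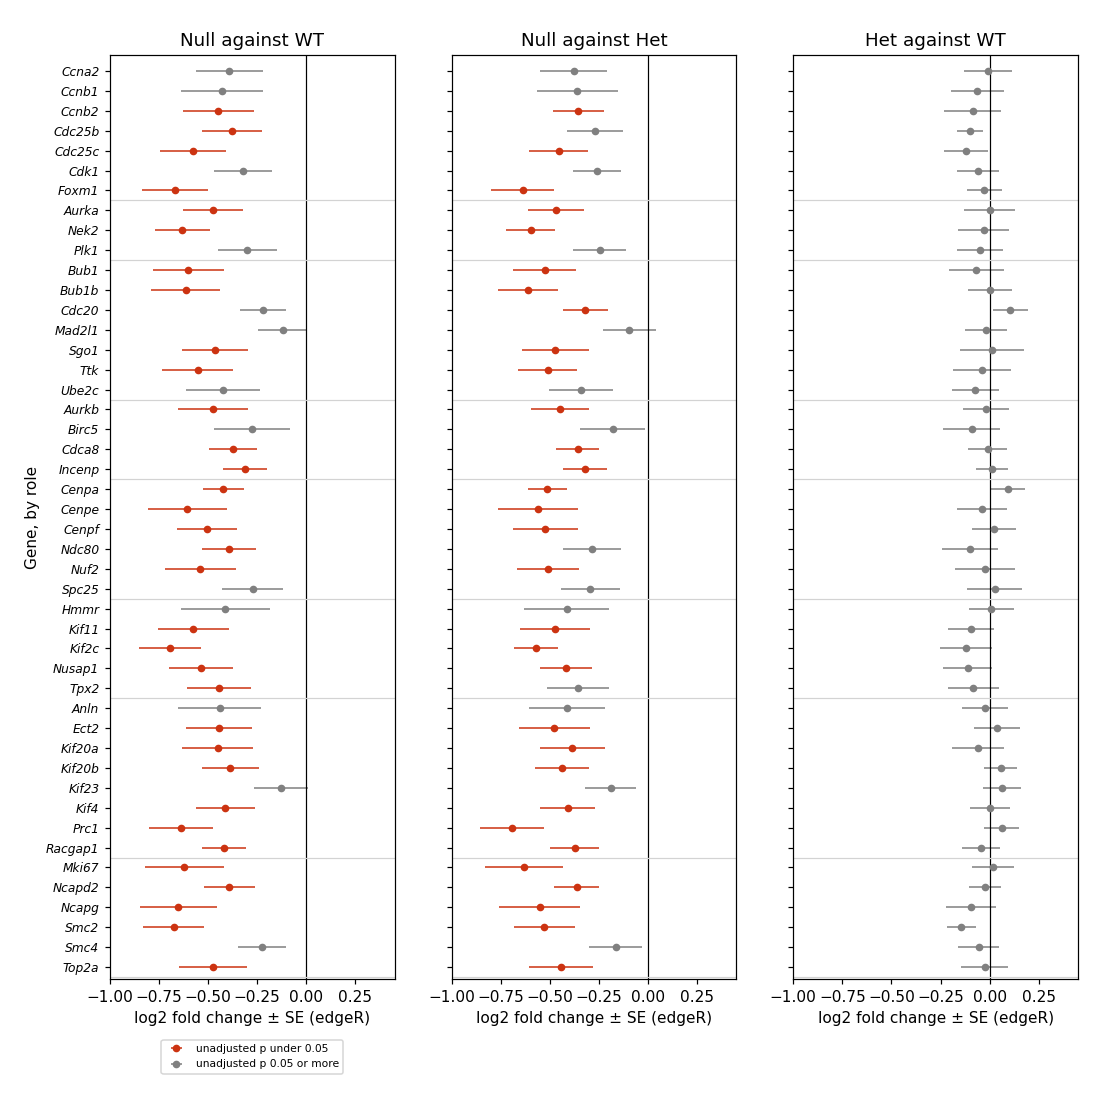
Log2 fold change of each gene with its SE (horizontal axes, edgeR) for null against WT, null against heterozygote and heterozygote against WT, with genes on the vertical axis by role and red points for an unadjusted p under 0.05. All 46 points lie below 0 in the first 2 panels, with 33 and 31 red points, and the last panel spans -0.14 to 0.11 with 0 red points.

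Of the 7 genes of Cdk1, its cyclins and mitotic entry, 4 had an unadjusted p under 0.05 (background 5.76% lower), and the median log2 fold change was -0.43. Ccna2, cyclin A2 (ENSMUSG00000027715, chromosome 3, 36564865 to 36572150, minus strand), was the most abundant. It was at 79.9, 94.6 and 69.9 CPM across WT embryos 1 to 3, 67.0, 88.2 and 87.8 across heterozygotes 1 to 3 and 58.5, 51.1 and 77.5 across null embryos 1 to 3. Null embryo 3 was above WT embryo 3, so that the genotypes overlapped, and the log2 fold change was -0.39 (SE 0.171, edgeR adjusted p = 0.414). Its exons overlap those of Exosc9 on the other strand, and 11.4% of its 50-base stretches are shared, which matters if the counting ignored strand. Foxm1, the transcription factor that activates late cell cycle genes (ENSMUSG00000001517, chromosome 6, 128362967 to 128376146, plus strand), had the smallest p of the group. Its level was 70.1, 82.2 and 65.6 CPM across WT embryos 1 to 3, 65.0, 78.7 and 70.2 across heterozygotes 1 to 3 and 46.2, 35.5 and 55.8 across null embryos 1 to 3. All null embryos were below all others, and the null mean was 63.1% of WT, a log2 fold change of -0.67 (SE 0.168, edgeR adjusted p = 0.124). Cdk1 itself, the mitotic kinase, had 64.1 ± 10.5 CPM (SD, n = 3) in WT and 51.4 ± 7.32 CPM in null embryos, with overlapping libraries. The phosphatases that activate Cdk1 had log2 fold changes of -0.38 (SE 0.151) for Cdc25b and -0.58 (SE 0.169) for Cdc25c, and the B cyclins -0.43 (SE 0.208) for Ccnb1 and -0.45 (SE 0.182) for Ccnb2. Ccnb1 shares 23.4% of its 50-base stretches with other genes, most of them with the pseudogene Ccnb1-ps, and is uncertain to that extent.

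Among the 3 mitotic kinases, Nek2 and Aurka had an unadjusted p under 0.05 (background 5.76%), and the median log2 fold change was -0.48. Nek2, which separates the centrosomes (ENSMUSG00000026622, chromosome 1, 191821444 to 191833050, plus strand), had the smallest p of all 46 genes. It was at 27.1, 33.2 and 24.1 CPM across WT embryos 1 to 3, 24.2, 31.4 and 27.0 across heterozygotes 1 to 3 and 17.2, 19.2 and 18.3 across null embryos 1 to 3. The null libraries lay within a narrow band under all the others, and null embryo 3 was no higher than null embryo 2. The log2 fold change was -0.63 (SE 0.14, edgeR adjusted p = 0.0818). Aurka, the spindle pole kinase, had 29.7 ± 4.77 CPM (SD, n = 3) in WT and 21.4 ± 2.69 CPM in null embryos. Its log2 fold change was -0.48 (SE 0.151) and the genotypes did not overlap. Plk1, the polo kinase of mitotic entry and spindle formation (ENSMUSG00000030867, chromosome 7, 122159439 to 122169873, plus strand), was the most abundant of the 3 by CPM. It was at 34.0, 40.3 and 29.9 CPM across WT embryos 1 to 3, 30.3, 37.6 and 32.9 across heterozygotes 1 to 3 and 26.4, 25.5 and 33.2 across null embryos 1 to 3. Null embryo 3 reached the range of WT, and the log2 fold change was -0.30 (SE 0.151, edgeR adjusted p = 0.483). Plk1 shares 10.4% of its 50-base stretches with other genes, most with the pseudogene Plk-ps1.

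The checkpoint and APC/C group had 4 of 7 genes with an unadjusted p under 0.05 (background 5.76%) and a median of -0.46, with Mad2l1 and Cdc20 nearest to the WT level. Bub1b, which encodes the checkpoint protein BubR1 (ENSMUSG00000040084, chromosome 2, 118598211 to 118641591, plus strand), was both the most abundant by CPM and the smallest in p. It was at 70.9, 93.5 and 69.3 CPM across WT embryos 1 to 3, 70.2, 85.5 and 78.2 across heterozygotes 1 to 3 and 49.7, 41.4 and 62.2 across null embryos 1 to 3. All null embryos were below all others, with a log2 fold change of -0.62 (SE 0.174, edgeR adjusted p = 0.174). The kinases Bub1 and Ttk (also called Mps1) had log2 fold changes of -0.60 (SE 0.179) and -0.55 (SE 0.179), and Sgo1, which protects centromeric cohesion, of -0.46 (SE 0.168). In each of these 3 the null embryos did not overlap with WT (background 8.95%). Mad2l1, the Mad2 protein that binds Cdc20 at the checkpoint (ENSMUSG00000029910, chromosome 6, 66535390 to 66547220, plus strand), was at 35.5, 38.8 and 31.9 CPM across WT embryos 1 to 3, 29.97, 38.5 and 36.1 across heterozygotes 1 to 3 and 30.6, 29.8 and 37.6 across null embryos 1 to 3. Null embryo 3 was above 2 of the WT embryos, and the log2 fold change of -0.12 (SE 0.127, edgeR adjusted p = 0.76) was the smallest of the 46. Cdc20, the APC/C activator (ENSMUSG00000006398, chromosome 4, 118432901 to 118437352, minus strand), was at 56.3, 66.7 and 55.8 CPM across WT embryos 1 to 3, 56.5, 67.8 and 68.1 across heterozygotes 1 to 3 and 44.8, 53.2 and 56.2 across null embryos 1 to 3. Its log2 fold change was -0.22 (SE 0.117, edgeR adjusted p = 0.515), and null embryo 3 was within the WT range. Ube2c, the ubiquitin-conjugating enzyme of the APC/C, had 67.4 ± 12.5 CPM (SD, n = 3) in WT and 50.5 ± 12.1 CPM in null embryos, with overlap.

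**Figure D4:**
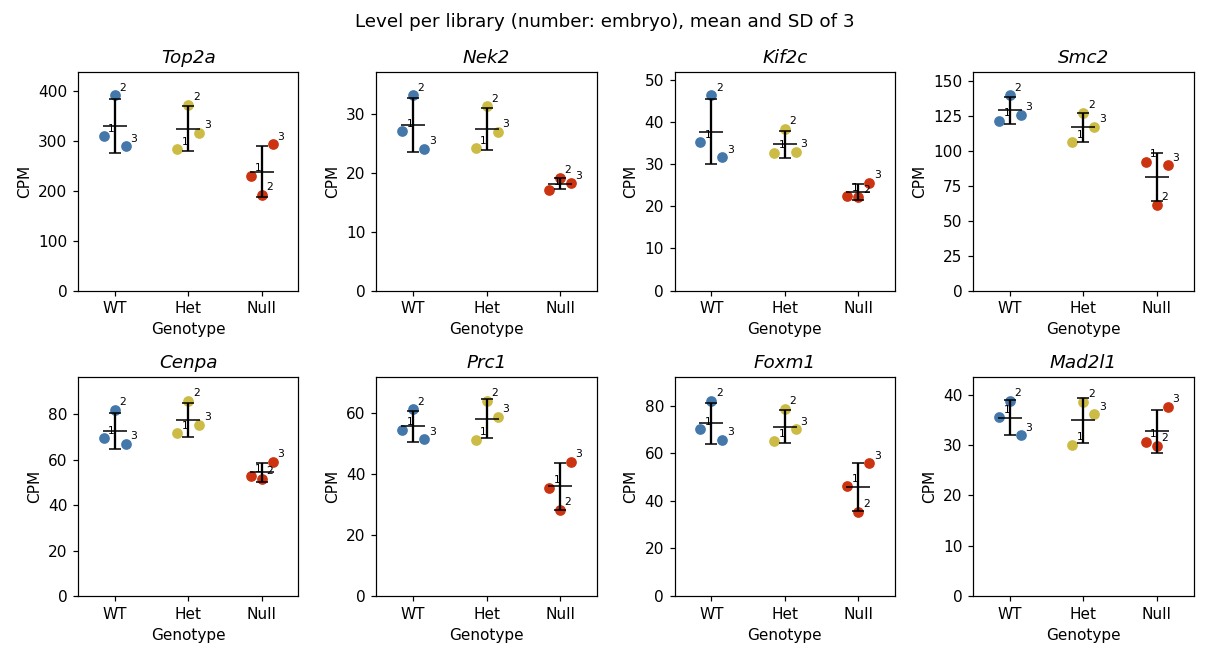
Level in CPM (vertical axes, from 0) of 8 genes by genotype (horizontal axes), with a point per library marked by the embryo number, and the mean and SD of 3 in black. Null embryos lie below all WT and heterozygote embryos for Nek2, Kif2c, Smc2, Cenpa, Prc1 and Foxm1, and overlap with them for Top2a and Mad2l1.

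All 4 members of the chromosomal passenger complex, which corrects faulty attachments and later acts at the midzone, were below 0, 3 of them with an unadjusted p under 0.05 (background 5.76%), and the median of -0.34 was the nearest to 0 of the 8 groups. Incenp, the scaffold of the complex (ENSMUSG00000024660, chromosome 19, 9872296 to 9899551, minus strand), was at 80.6, 83.9 and 69.3 CPM across WT embryos 1 to 3, 72.8, 86.6 and 76.3 across heterozygotes 1 to 3 and 58.1, 59.1 and 71.5 across null embryos 1 to 3. Null embryo 3 was above WT embryo 3, and the log2 fold change was -0.31 (SE 0.112, edgeR adjusted p = 0.297). Cdca8, the targeting subunit borealin (ENSMUSG00000028873, chromosome 4, 124918465 to 124939311, minus strand), was at 49.8, 55.5 and 43.2 CPM across WT embryos 1 to 3, 43.9, 51.1 and 52.3 across heterozygotes 1 to 3 and 36.9, 35.4 and 42.7 across null embryos 1 to 3. All null embryos were below all WT embryos, with null embryo 3 just under WT embryo 3, and the log2 fold change was -0.37 (SE 0.122, edgeR adjusted p = 0.247). The kinase Aurkb had a log2 fold change of -0.47 (SE 0.178), and Birc5 (survivin) of -0.28 (SE 0.194), the latter with overlapping genotypes.

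Of the 6 kinetochore genes 5 had an unadjusted p under 0.05 (background 5.76%) and did not overlap between null and WT (background 8.95%), with a median of -0.47. Cenpa, the histone H3 variant that marks the centromere (ENSMUSG00000029177, chromosome 5, 30666777 to 30674830, plus strand), was at 69.5, 81.9 and 67.0 CPM across WT embryos 1 to 3, 71.7, 86.1 and 75.4 across heterozygotes 1 to 3 and 52.8, 51.5 and 59.1 across null embryos 1 to 3. The null embryos lay below all the others, and the log2 fold change was -0.42 (SE 0.105, edgeR adjusted p = 0.121). Cenpf, a large outer kinetochore protein (ENSMUSG00000026605, chromosome 1, 189640606 to 189688086, minus strand), was at 117, 148 and 126 CPM across WT embryos 1 to 3, 117, 157 and 123 across heterozygotes 1 to 3 and 99.2, 72.1 and 105 across null embryos 1 to 3. Null embryo 2 was the lowest by a wide margin, all 3 were below all others, and the log2 fold change was -0.51 (SE 0.153, edgeR adjusted p = 0.209). The motor Cenpe had -0.61 (SE 0.2), and of the Ndc80 complex, which holds the microtubule, Ndc80 had -0.39 (SE 0.138), Nuf2 -0.54 (SE 0.183) and Spc25 -0.27 (SE 0.154) as log2 fold changes. Spc25 was the member with overlap.

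The 5 spindle assembly genes had a median of -0.54, with an unadjusted p under 0.05 in 4 (background 5.76%). Kif2c (MCAK), the kinesin that depolymerizes microtubules at centromeres (ENSMUSG00000028678, chromosome 4, 117159639 to 117182639, minus strand), had the largest difference of the 46 genes. It was at 35.2, 46.3 and 31.7 CPM across WT embryos 1 to 3, 32.7, 38.4 and 33.0 across heterozygotes 1 to 3 and 22.5, 22.1 and 25.6 across null embryos 1 to 3. The null embryos were within a narrow range, below all the others, and the log2 fold change was -0.69 (SE 0.156, edgeR adjusted p = 0.0862). Tpx2, which activates Aurora A on the spindle (ENSMUSG00000027469, chromosome 2, 152847964 to 152895321, plus strand), was the most abundant of the group. It was at 102, 129 and 91.8 CPM across WT embryos 1 to 3, 84.5, 116 and 104 across heterozygotes 1 to 3 and 74.5, 67.8 and 95.7 across null embryos 1 to 3. Null embryo 3 was above WT embryo 3, and the log2 fold change was -0.45 (SE 0.163, edgeR adjusted p = 0.312). Kif11 (Eg5), the motor that pushes the poles apart, and Nusap1, a microtubule bundler, had log2 fold changes of -0.57 (SE 0.18) and -0.54 (SE 0.162). Neither overlapped between null and WT (background 8.95%), but null embryo 3 was above heterozygote 1 for both. Hmmr, a spindle-associated protein, had -0.41 (SE 0.226), with null embryo 3 within the WT range.

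For the central spindle and cytokinesis 6 of 8 genes had an unadjusted p under 0.05 (background 5.76%), with a median of -0.43. Racgap1, a subunit of centralspindlin (ENSMUSG00000023015, chromosome 15, 99620496 to 99651656, minus strand), was the most abundant by CPM. It was at 78.5, 88.2 and 72.6 CPM across WT embryos 1 to 3, 67.6, 87.9 and 76.8 across heterozygotes 1 to 3 and 57.7, 54.3 and 67.4 across null embryos 1 to 3. Null embryos were below all others, with a log2 fold change of -0.42 (SE 0.112, edgeR adjusted p = 0.148). Kif23 (ENSMUSG00000032254, chromosome 9, 61915905 to 61946774, minus strand) encodes the kinesin partner of Racgap1 in that complex, and was at 58.8, 71.9 and 57.9 CPM across WT embryos 1 to 3, 61.2, 73.6 and 62.4 across heterozygotes 1 to 3 and 54.8, 50.4 and 67.9 across null embryos 1 to 3. Null embryo 3 was within the WT range, and the log2 fold change was -0.13 (SE 0.137, edgeR adjusted p = 0.762). Whether the 2 subunits of the complex differed from each other was not tested. Prc1, the microtubule crosslinker of the midzone (ENSMUSG00000038943, chromosome 7, 80294450 to 80316259, plus strand), had the smallest p of the group. It was at 54.5, 61.3 and 51.4 CPM across WT embryos 1 to 3, 51.4, 64.2 and 58.9 across heterozygotes 1 to 3 and 35.6, 28.3 and 44.0 across null embryos 1 to 3. Null embryos were below all others, and the log2 fold change was -0.64 (SE 0.161, edgeR adjusted p = 0.126). Prc1 shares 9.77% of its 50-base stretches, most with the antisense gene Rccd1. The remaining log2 fold changes were -0.45 (SE 0.169) for Ect2, the activator of RhoA, -0.44 (SE 0.212) for the scaffold Anln, -0.39 (SE 0.145) for Kif20b, -0.45 (SE 0.181) for Kif20a and -0.41 (SE 0.151) for Kif4. Kif20a shares 25.2% of its 50-base stretches with other genes, Cdc23 above all, and Kif4 14.5%, most with Pdzd11.

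The 6 genes of chromosome structure had a median of -0.55, the lowest of the groups, and 5 had an unadjusted p under 0.05 (background 5.76%). Top2a, the topoisomerase that untangles sister chromatids (ENSMUSG00000020914, chromosome 11, 98992943 to 99024189, minus strand), was the most abundant of the 46 by CPM and per length. It was at 309, 391 and 289 CPM across WT embryos 1 to 3, 283, 372 and 316 across heterozygotes 1 to 3 and 229, 192 and 293 across null embryos 1 to 3. Null embryos 1 and 2 were below all others, while null embryo 3 was between WT embryos 1 and 3. The log2 fold change was -0.47 (SE 0.173, edgeR adjusted p = 0.309). Smc2, the core ATPase of condensin (ENSMUSG00000028312, chromosome 4, 52439243 to 52488260, plus strand), was at 121, 139.6 and 126 CPM across WT embryos 1 to 3, 106, 127 and 117 across heterozygotes 1 to 3 and 92.1, 61.3 and 89.5 across null embryos 1 to 3. Null embryos were below all others with a null mean of 62.8% of WT, and the log2 fold change was -0.68 (SE 0.154, edgeR adjusted p = 0.0893). Its condensin partner Smc4 had -0.23 (SE 0.121) with overlap, and the condensin I subunits Ncapg and Ncapd2 had -0.65 (SE 0.196) and -0.39 (SE 0.128). Mki67, the coat protein of mitotic chromosomes known as the proliferation antigen Ki-67, had 300.4 ± 37.8 CPM (SD, n = 3) in WT, 304 ± 43.0 in heterozygote and 196 ± 54.0 in null embryos, with a null against WT log2 fold change of -0.62 (SE 0.2).

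Levels of different genes were compared per kilobase of exon, with the length taken over the exons of all annotated transcripts of a gene. The order therefore depends on which transcripts are annotated, and the transcripts in use were not determined. In WT the highest mean levels were 36.5 CPM per kb for Top2a, 31.9 for Cdc20, 29.9 for Mki67, 25.9 for Ube2c and 24.3 for Smc4. The lowest were 2.77 CPM per kb for Ndc80 and 3.37 for Cdc25c. Genes with a high level were found among those with large and with small differences between null and WT, as Mki67 and Cdc20 show.

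Heterozygotes were compared with WT to see whether a single trapped copy went with a difference. The 46 genes had log2 fold changes from -0.14 to 0.11 with a median of -0.03, against 0.00 over the 17269 genes tested, and 32 of the 46 were below 0 (background 50%). edgeR called 0 (background 0.151% in either direction), DESeq2 and limma-voom called 0 (background 1.47% and 0.0347% lower), and 0 had an unadjusted p under 0.05 (background 13.1% in either direction). The libraries overlapped for every one of the 46 genes (background 8.99% of genes with all heterozygotes below WT and 8.98% with all above). The SE of a gene was 0.0663 to 0.163 on the log2 scale, and a difference must exceed its SE by a clear margin to be told from 0. Smc2 had the smallest p, with -0.14 (SE 0.0726, edgeR unadjusted p = 0.0761, edgeR adjusted p = 0.441). Cenpa had 0.09 (SE 0.0876) and Foxm1 -0.03 (SE 0.0913). The median changed sign with single libraries, to 0.09 without WT embryo 2 and 0.05 without heterozygote 1, and was 0.16 against WT embryo 3 alone, the WT library low in mesenchyme markers. With the mean mesenchyme marker level as a covariate the median was 0.30 and 26 genes were higher at an unadjusted p under 0.05 (background 3.47%), with 0 called. Every heterozygote was below every WT embryo in the marker sum (at most 90.8 against at least 105 CPM). Genotype and marker level are therefore confounded in that fit, and it cannot tell them apart.

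The 46 genes were also lower in null embryos than in heterozygotes, in a comparison that uses the same null libraries. All 46 genes were below 0 (background 47.7% of 17067 genes), with a median of -0.42 and a range of -0.69 to -0.10, against 0.01 over all genes tested. edgeR called 0 (background 0.322% lower and 0.615% in either direction), 31 had an unadjusted p under 0.05 and were lower (background 5.25%), and 24 had all null embryos below all heterozygotes (background 9.1%). DESeq2 called 10 (background 0.885%), namely Bub1, Bub1b, Cenpa, Cenpf, Foxm1, Kif2c, Mki67, Nek2, Prc1 and Smc2, and limma-voom called 0 (background 0.316%). Cenpa had the smallest p, with a log2 fold change of -0.51 (SE 0.0999, edgeR adjusted p = 0.0865), followed by Kif2c with -0.57 (SE 0.111, edgeR adjusted p = 0.0865). Nek2 had -0.60 (SE 0.124, edgeR adjusted p = 0.104) and Prc1 -0.69 (SE 0.163, edgeR adjusted p = 0.15). Nearest to 0 was Mad2l1 with -0.10 (SE 0.134, edgeR adjusted p = 0.792). Smc4 followed with -0.16 (SE 0.135, edgeR adjusted p = 0.649) and Birc5 with -0.18 (SE 0.165, edgeR adjusted p = 0.681). Kif23 had -0.19 (SE 0.13, edgeR adjusted p = 0.597). Without null embryo 3, whose mesenchyme markers were high, edgeR called 6 genes lower (background 0.573%), which were Bub1b, Cenpa, Foxm1, Kif2c, Ncapg and Prc1. The median was then -0.57 and 43 genes had an unadjusted p under 0.05 (background 6.22%). All 5 libraries of that comparison were low in mesenchyme markers. Without heterozygote 2, the highest heterozygote for 42 of the 46 genes, 12 genes had an unadjusted p under 0.05 (background 3.07%) and 0 were called.

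**Figure D5:**
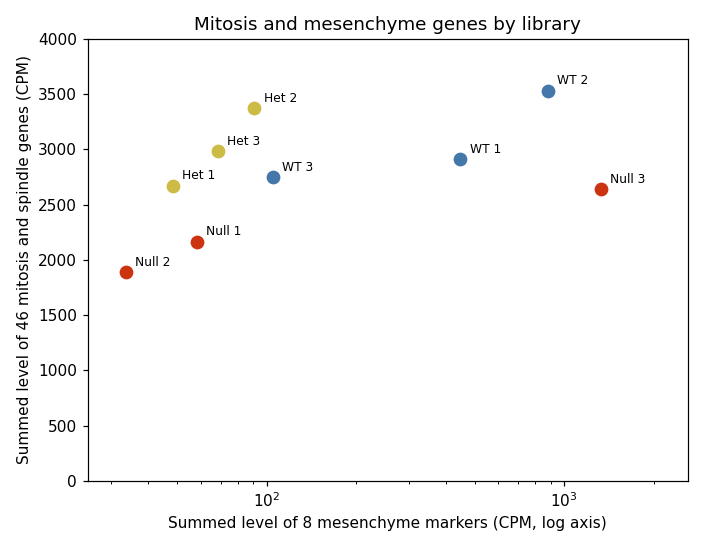
Summed level of the 46 mitosis and spindle genes (CPM, vertical axis) against the summed level of 8 mesenchyme markers (CPM, log horizontal axis), a point per library colored by genotype. Among the 6 libraries with 33.6 to 105 CPM of mesenchyme markers, null embryos 1 and 2 at 2166 and 1891 CPM lie under WT embryo 3 and the heterozygotes at 2673 to 3375 CPM, and null embryo 3, with 1329 CPM of the markers, is at 2643 CPM.

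Within each genotype the genes moved together from library to library. WT embryo 2 was the highest of the 3 WT libraries for all 46 genes, heterozygote 2 the highest of its genotype for 42, and null embryo 3 the highest null library for 43. The shares over all genes were not computed for these counts within a genotype. Null embryo 2 was the lowest of the 9 libraries for 33 genes and null embryo 1 for the other 13, against 23.9% and 11.1% of all genes tested. WT embryo 2 was the highest of the 9 for 36 genes (9.32% of all genes), heterozygote 2 for 9 (6.84%) and heterozygote 3 for 1 (6.08%). In WT and in null embryos the highest library for the mitosis genes was also the highest in mesenchyme markers, at 881 and 1329 CPM, and among the heterozygotes too, at 90.8 CPM. In the libraries low in these markers (null embryos 1 and 2 against WT embryo 3), the median was -0.41 with all 46 genes below 0, 12 with an unadjusted p under 0.05 (background 3.95%) and 0 called, where the spread of a lone WT library is assumed to be that of the null pair. With the marker level as a covariate the median was -0.32 and 31 genes had an unadjusted p under 0.05 (background 5.8%). Of the markers of the epithelial regions, the 3 KO markers Fgf10, Tecta and Prdm16 (the last being the trapped gene) fell in null against WT, each passing in edgeR (smallest adjusted p = 0.000148). They summed to 2914 to 3605 CPM in WT, 2745 to 3416 in heterozygote and 1506 to 1766 in null embryos, and most of the sum was Tecta. The prosensory markers Sox2, Jag1 and Hey2 summed to 527 to 568, 628 to 667 and 594 to 784 CPM. All 3 were above 0 in null against WT with an unadjusted p under 0.05 (background 6.48% higher, median 0.34), and 0 were called (smallest edgeR adjusted p = 0.247). In heterozygotes against WT the median was 0.30, with 2 higher at that p (background 5.8%) and 0 called. In null embryos against heterozygotes the median was 0.06, with 0 at that p (background 6.14% higher). The outer sulcus markers Bmp4 and Lmx1a summed to 476 to 566, 538 to 601 and 564 to 769 CPM, with a median of 0.39 in null against WT, 1 of 2 at an unadjusted p under 0.05 (background 6.48%) and 0 called. The roof markers Otx1, Otx2, Fgf9 and Oc90 summed to 7512 to 8773, 9083 to 9504 and 10385 to 13801 CPM, and most of the sum was Oc90. All 4 had an unadjusted p under 0.05 and were higher in null than in WT (background 6.48%, median 0.44, 0 called), but Otx1 was at 57.3 to 63.3 CPM in heterozygotes and 58.6 to 62.0 in null embryos. All 4 roof markers were also higher at that p in heterozygotes against WT (background 5.8%, median 0.22, 0 called). In null embryos against heterozygotes 2 were (background 6.14%, median 0.22, 0 called). The 4 melanocyte markers Dct, Pmel, Tyr and Tyrp1, genes of pigment cells, summed to 54.6 to 131, 20.4 to 39.8 and 12.0 to 42.6 CPM. Each was lower in all null than in all WT embryos (background 8.95%, median -2.15), with 0 called and a smallest edgeR adjusted p of 0.0551. Of 4 hair cell markers Myo7a was called higher in null against WT (log2 fold change 1.08, edgeR adjusted p = 0.0257), and the median of the 4 was -0.14. Of the 4 neuron markers tested Stmn2 was called lower (log2 fold change -2.96, edgeR adjusted p = 0.00343), with a median of -0.02. All 4 macrophage and all 5 erythroid markers tested were below 0 (medians -1.33 and -0.64), and 0 were called. The 5 endothelial markers had a median of -1.53, the 4 Schwann cell markers 0.07 and the 3 duct epithelium markers 0.07, with 0 called in each list. The part of the cell makeup in the lower mitosis genes was not tested.

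Further lists of cell cycle genes were set beside the 46. Of 79 further mitosis genes, 71 were below 0 in null against WT (background 48.1% of all genes tested), 40 had an unadjusted p under 0.05 and were lower (background 5.76%), 0 were higher at that p, and the median was -0.38. Among them 2 passed the threshold in edgeR (background 0.786% lower). Spag5 (astrin), a spindle protein, was at 56.0, 65.9 and 50.1 CPM across WT embryos 1 to 3, 52.6, 61.1 and 59.2 across heterozygotes 1 to 3 and 36.5, 31.9 and 38.1 across null embryos 1 to 3. Spag5 fell by 0.70 on the log2 scale against WT (SE 0.125, edgeR adjusted p = 0.0386) and by 0.70 against heterozygotes (SE 0.102, edgeR adjusted p = 0.0312). Pimreg was at 29.7, 33.7 and 28.1 CPM across WT, 26.5, 36.0 and 30.6 across heterozygotes and 18.1, 20.6 and 20.7 across null embryos, and fell by 0.63 on the log2 scale against WT (SE 0.117, edgeR adjusted p = 0.0453). With each embryo left out in turn, both genes passed against WT in 1 of 6 fits, the one without null embryo 3, with edgeR adjusted p-values of 0.0347 to 0.165 for Spag5 and 0.0437 to 0.24 for Pimreg. Against heterozygotes Spag5 passed in 2 of 6, without null embryo 2 and without null embryo 3 (edgeR adjusted p of 0.0184 to 0.214). Against WT embryo 3, null embryos 1 and 2 alone gave 0.667 for Spag5 and 0.793 for Pimreg as edgeR adjusted p-values. With the replicate number as a block neither passed against WT (edgeR adjusted p = 0.153 for Spag5 and 0.127 for Pimreg), nor did Spag5 against heterozygotes (0.0897). With the mesenchyme covariate Pimreg did not pass against WT (edgeR adjusted p = 0.0511). Of 45 DNA replication genes, which act in S phase, 38 were below 0, 10 had an unadjusted p under 0.05 and were lower (background 5.76%), 0 were called (background 0.786% lower), and the median was -0.25. Of 9 subunits and regulators of the DREAM and MuvB complexes, which bind the CHR element, 7 were below 0, 1 was lower at an unadjusted p under 0.05 (background 5.76% lower and 6.48% higher), 0 were called, and the median was -0.10. Against heterozygotes the medians of the 3 lists were -0.37, -0.20 and -0.14, and in heterozygotes against WT they were 0.02, 0.02 and 0.04. Differences between the lists were not tested.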

How the data were processed

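RNA was measured in 9 libraries, each from the cochlear ducts of a single E14.5 embryo (3 per genotype). The authors deposited whole-number read counts for each Ensembl gene, not normalized, made from 50-base single reads of TruSeq mRNA libraries. The submitters' processing notes name cutadapt 1.13, STAR, HTSeq 0.6.1p1, DESeq2 and the build mm10. The annotation release and the strand setting are not given in the sources used here, and the authors' own comparison values were not used.

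The counts were tested with edgeR 4.0.16 (R 4.3.3), with TMM normalization, filterByExpr (minimum count 10) and the quasi-likelihood test (two-sided). Each fit took the 6 libraries of 2 genotypes, with Benjamini-Hochberg adjustment over all genes tested. Called genes had an adjusted p under 0.05 and a log2 fold change beyond 0.5 in either direction. The SE is the fold change over the root of its F statistic. An exact permutation test of 3 against 3 embryos cannot go below 0.1 and was not used. Names, positions and exon lengths came from GENCODE vM21, which holds 54079 of the 54232 genes, and promoter windows from RefSeq.

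The 46 genes, the comparison lists and the tests were chosen with earlier results of these data known. In each role group the most abundant gene and the gene with the smallest p in null against WT are named with full values, as are the 3 largest and 3 smallest differences and the smallest p of the other comparisons. Alternatives were DESeq2 1.42.0, limma-voom (limma 3.58.1), RLE or no composition normalization, no filter, a joint fit of all 9 libraries, a block for the replicate number, a mesenchyme covariate, and leaving out each embryo. The fit without the 3 libraries high in mesenchyme markers was chosen after seeing the data. Values of single DNA replication genes are not reported here.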

Additional observations from a re-analysis of the deposited data

How the results depend on the processing

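All 46 genes had a log2 fold change below 0 in null against WT and in null against heterozygote embryos under each alternative run, and no named gene changed direction in these 2 comparisons. The number of genes called in null against WT, 0 in edgeR, was 14 with DESeq2 (1.51% of all genes tested called lower), 6 with no filter on low counts (0.653%), 5 with all 9 libraries in one fit (1.17%), and 0 to 5 with each embryo left out (0.208 to 1.31%). The number with an unadjusted p under 0.05, 33, was 12 in the libraries low in mesenchyme markers (3.95% of all genes lower at that p) and 13 to 42 with each embryo left out (3.48 to 9.21%). The median was -0.61 to -0.31 with each embryo left out. For null against heterozygote embryos, the number called was 10 with DESeq2 (0.885% of all genes), 9 with no filter (0.435%), 1 with all 9 libraries in one fit (0.478%), 16 with the mesenchyme covariate (0.791%), 6 in the libraries low in mesenchyme markers (0.573%), and 0 to 6 with each embryo left out (0.0344 to 0.573%). The number with an unadjusted p under 0.05, 31, was 12 to 43 with each embryo left out (3.07 to 9.36% of all genes), and the median -0.57 to -0.31. For heterozygote against WT embryos, the number with an unadjusted p under 0.05 was 1 with no filter (5.85% of all genes lower), 1 in the libraries low in mesenchyme markers (4.16% higher), 26 with the mesenchyme covariate (3.47% higher, median 0.30) and 0 to 2 with each embryo left out (5.18 to 8.25% lower and 3.84 to 6.53% higher), the median then being -0.11 to 0.09. Of the other comparisons of a named gene with an alternative, 248 in null against WT and 237 in null against heterozygote embryos stayed on the same side of the threshold, and 22 and 33 passed it where the reported value did not. The cause of these differences was not tested. In heterozygote against WT embryos the mesenchyme covariate is confounded with genotype, as every heterozygote was below every WT embryo in the marker sum. In null against heterozygote embryos the covariate rests on null embryo 3, the only library of that comparison high in these markers. Fewer libraries in a fit leave fewer degrees of freedom.

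Embryos of different genotypes share the numbers 1 to 3, but libraries of the same number did not deviate together. The correlation of their deviations was -0.31 to 0.28 over 9 pairs, over 0.1 in 3, so that the numbers were not taken as a pairing. With the replicate number as a block, 0 of the 46 genes were called in null against WT, null against heterozygote and heterozygote against WT (0.396, 0.176 and 0.955% of all genes called lower), 23, 36 and 1 had an unadjusted p under 0.05 (4.95, 4.95 and 7.57% of all genes lower at that p), and the medians were -0.45, -0.45 and -0.02.

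The precision is that of 3 embryos per genotype, and the 46 genes together had 52503 to 93689 counts per library. Counts of Kif20a, Ccnb1, Ube2c, Kif4, Ncapg, Cdc25c, Ccna2, Cdc20 and Plk1, which share from 10.4 to 25.2% of their 50-base stretches with other genes, are uncertain, by an amount that these shares do not bound.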
